A study of Mus musculus with 24 samples.

Results

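The genes described here are 10 components and targets of bone morphogenetic protein (BMP) and SMAD signalling in the mouse hippocampus, namely the inhibitor of DNA binding genes Id1, Id2, Id3 and Id4, the signalling SMAD genes Smad1 and Smad5, the inhibitory SMAD genes Smad6 and Smad7, and the receptor genes Bmpr1a and Acvr1c. They were taken by symbol from the 47593 genes of the count table. Of these 10 genes, 9 were chosen for their place in the pathway, though with earlier results of these data known. Acvr1c was selected on its measured levels, because they differed between the genotypes by a similar amount at every time point, so its genotype values are given as a description only. RNA of 24 hippocampal samples from male C57BL/6J mice was sequenced, in 8 groups of 3. Mice of the behavioural tests were 8 to 12 weeks old, and no age is given for the sequenced ones. Wild-type (WT) mice and mice lacking Tob (Tob-KO) were either naive or had gone through fear conditioning 15 min, 1 h or 3 h earlier. In this training, mice were placed in a chamber and repeatedly given a tone that ended together with a foot shock. The labels give no other allele or treatment for any group, and the allele of the Tob-KO line, made in earlier work, is not described in the sources used here. The comparisons asked whether genes of this pathway differed between the genotypes, and whether their transcripts changed after conditioning.

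BMPs are secreted ligands that join type I receptors, such as the product of Bmpr1a, with type II receptors, such as that of Bmpr2. The activated type I receptor phosphorylates SMAD1, SMAD5 and SMAD9, which bind SMAD4, enter the nucleus and turn on target genes, of which the Id genes are the best known. ID proteins lack a DNA-binding region and keep basic helix-loop-helix factors from binding DNA, and in the brain they are known for holding neural progenitors and astrocyte precursors in an undifferentiated state. SMAD6 and SMAD7 are themselves induced by the pathway and block it, SMAD6 mainly on the BMP branch and SMAD7 on the BMP and TGF-beta branches. Acvr1c encodes the type I receptor ALK7, which is known to respond to nodal, activin and related ligands through SMAD2 and SMAD3, so it belongs to the neighbouring activin branch and not to the BMP branch. TOB, the product of the gene listed as Tob1, is an antiproliferative protein that is known to bind SMADs and to restrain BMP signalling in bone. Phosphorylation of SMADs cannot be seen in RNA counts, so the values below are transcript levels of the pathway's parts and targets.

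The libraries held 28847989 to 41595972 counts (median 31169386.5), and all 10 genes passed the filter of 0.2 CPM in 2 libraries, where CPM is the count scaled to the size of the library with TMM normalization. Raw counts of Smad6, the lowest, were 43 to 128 per library, and those of the other 9 genes were 192 or more in every library. In the libraries labelled Tob-KO, Tob1 was at 52 to 55.4 CPM in naive mice against 33.7 to 43.1 CPM in WT, and it was higher in every library labelled Tob-KO than in every WT library at each of the 4 time points. The count was thus higher where the label names a loss. A count over the whole gene does not show which exons the allele lacks, so the label could not be checked by it in either direction. Tob-KO below stands for the library labelled so. Neuron, astrocyte, dentate gyrus, CA1 and CA3 marker lists were detected in full in every library, with sums of 7520 to 8670 CPM for the 6 neuronal markers. The 13 choroid plexus markers summed to between 194 and 7240 CPM, with libraries of one group far apart except in WT at 15 min (194 to 229 CPM) and Tob-KO at 1 h (3310 to 4990 CPM), and Slc16a8 among them was at 0 in some libraries. The study describes its replicates as biological ones. These are bulk samples, so fewer cells of a type and less RNA per cell cannot be told apart.

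The stretches around the annotated start sites were read for letters that SMADs are known to bind, because 4 of the 10 genes were called higher 1 h after conditioning (below). Each stretch covers 250 bases before and 50 bases after a start in RefSeq (mouse build GRCm38.p6), whose starts are not always those of the gene spans given below, and stretches were found for 8 of the 10 genes. Shown are those of Id4, Smad5, Bmpr1a and Acvr1c, the 4 genes called after conditioning, and of Id3, which was not called. Capitals mark GGCGCC, a GC-rich element of SMAD1 and SMAD5, and CAGAC or its reverse complement GTCTG, the SMAD-binding element, both searched on either strand.
Id4, chr13:48260866-48261165, forward strand: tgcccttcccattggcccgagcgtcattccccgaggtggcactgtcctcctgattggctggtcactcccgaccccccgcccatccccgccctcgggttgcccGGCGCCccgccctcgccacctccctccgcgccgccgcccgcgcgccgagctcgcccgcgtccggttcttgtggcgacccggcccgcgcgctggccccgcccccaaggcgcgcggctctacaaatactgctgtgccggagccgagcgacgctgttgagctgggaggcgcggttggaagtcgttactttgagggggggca
Smad5, chr13:56702760-56703059, forward strand: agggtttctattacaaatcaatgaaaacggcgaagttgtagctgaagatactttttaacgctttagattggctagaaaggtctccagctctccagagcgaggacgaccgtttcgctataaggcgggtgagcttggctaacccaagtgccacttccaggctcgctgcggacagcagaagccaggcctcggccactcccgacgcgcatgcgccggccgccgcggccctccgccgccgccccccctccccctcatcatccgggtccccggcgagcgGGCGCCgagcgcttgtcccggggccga
Bmpr1a, chr14:34502497-34502796, reverse strand: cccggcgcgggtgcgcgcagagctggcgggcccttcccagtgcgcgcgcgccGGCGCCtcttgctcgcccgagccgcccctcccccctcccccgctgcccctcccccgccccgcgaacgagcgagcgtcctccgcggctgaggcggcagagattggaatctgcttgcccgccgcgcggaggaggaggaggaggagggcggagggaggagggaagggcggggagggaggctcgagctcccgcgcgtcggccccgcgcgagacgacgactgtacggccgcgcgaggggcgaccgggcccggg
Acvr1c, chr2:58357709-58358008, reverse strand: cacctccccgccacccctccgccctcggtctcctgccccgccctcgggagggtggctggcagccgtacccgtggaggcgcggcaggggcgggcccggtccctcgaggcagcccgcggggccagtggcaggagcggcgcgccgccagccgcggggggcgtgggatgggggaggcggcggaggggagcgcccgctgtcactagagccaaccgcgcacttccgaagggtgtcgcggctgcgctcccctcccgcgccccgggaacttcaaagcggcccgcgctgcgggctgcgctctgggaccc
Id3, chr4:136143572-136143871, forward strand: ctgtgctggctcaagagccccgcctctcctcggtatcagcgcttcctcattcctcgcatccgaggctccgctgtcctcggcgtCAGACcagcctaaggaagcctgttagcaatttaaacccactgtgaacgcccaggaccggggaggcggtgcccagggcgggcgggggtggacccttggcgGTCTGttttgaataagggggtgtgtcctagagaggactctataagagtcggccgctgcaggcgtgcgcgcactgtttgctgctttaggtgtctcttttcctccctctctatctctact

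GGCGCC occurred 1 time in each of the stretches of Id2, Id4 and Bmpr1a. For Smad5 it occurred 1 time at the first listed start and 1 time at the next, whose stretches overlap. Of all 32851 stretches of the same length, 11.9% held it. That share counts stretches and not genes, and a gene with several starts has several stretches, so it is no measure of enrichment here. Id2, whose stretch is not shown, was not called after conditioning, so genes with GGCGCC were found among the called and the uncalled ones. CAGAC occurred 2 times in the stretch of Id3 and 1 time at a further start of Smad5, and 49.6% of all stretches held it. TGACG, the core of the cAMP response element through which activity-induced transcription factors act, occurred in the stretches of Id3, Id4 and Smad1 and at that further start of Smad5, against 20.8% of all stretches. The palindrome TGACGTCA, of which TGACG is a part, occurred in none of those found for the 8 genes and in 1.79% of all. The stretches of Acvr1c and Smad6 held none of these letters, which says nothing about binding outside these windows.

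Id2 was the most abundant of the 10 genes per length of annotated exon and Smad6 the least. In CPM per kb of exon, Id2 was at 22.1 ± 2.51 (SD over 24 libraries), Id4 at 18.3 ± 2.02, Id3 at 13 ± 1.53 and Id1 at 8.27 ± 1.34. The receptor gene Bmpr1a stood at 11.5 ± 0.566 CPM per kb, between Id3 and Id1. Of the signalling SMAD genes, Smad5 was at 6.6 ± 0.535 CPM per kb and Smad1 at 3.18 ± 0.264, and the inhibitory Smad7 was at 5.83 ± 0.566. Acvr1c was at 3.32 ± 0.35 CPM per kb and Smad6 at 0.762 ± 0.214. In the order of these levels, the ranges over libraries of neighbouring genes overlapped except between Smad7 and Acvr1c and between Smad1 and Smad6. Bmpr1a varied least over the 24 libraries, with a coefficient of variation of 4.91%, and Smad6 most, with 28%.

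In GENCODE's annotation of GRCm38, all 10 genes are protein-coding, and values refer to whole genes, introns excluded. The Id genes are short, from 1.16 kb for Id1 (chromosome 2, 152736251 to 152737410) to 4.8 kb for Id4 (chromosome 13, 48261228 to 48266026). Id2 lies on chromosome 12 from 25093799 to 25097140 and Id3 on chromosome 4 from 136143497 to 136145755. Smad5 spans 39.4 kb on chromosome 13 from 56703010 to 56742377, Smad1 61.1 kb on chromosome 8 from 79338395 to 79399518, and Smad6 69 kb on chromosome 9 from 63953076 to 64022059. Bmpr1a spans 92.6 kb on chromosome 14 from 34410734 to 34503341, and Acvr1c 90.4 kb on chromosome 2 from 58267453 to 58357895. Smad7 spans 28.4 kb.

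**Figure D1:**
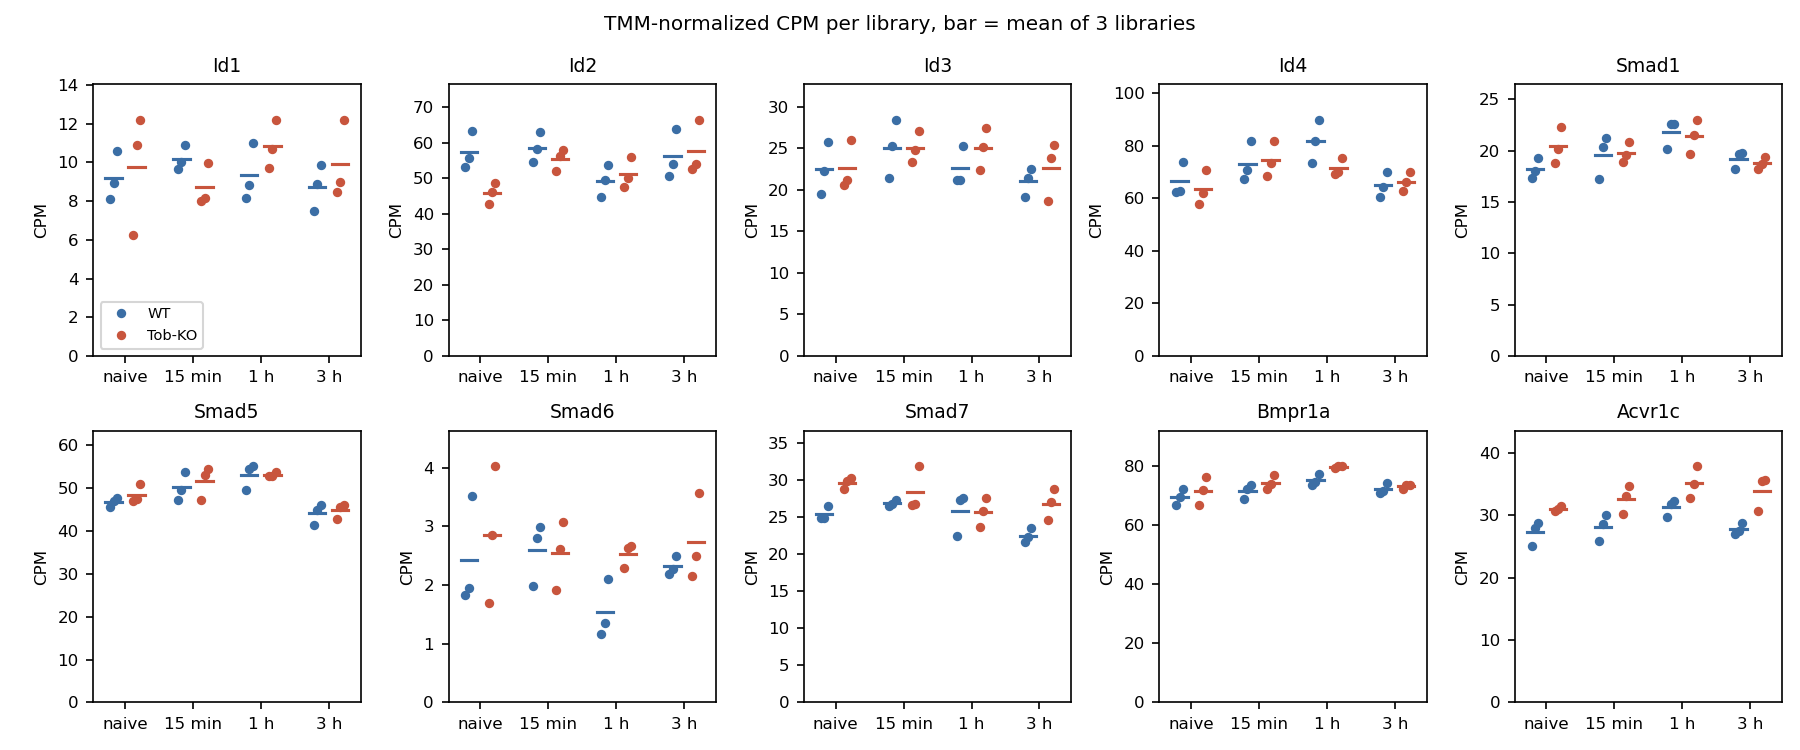
TMM-normalized CPM of the 10 genes (vertical axes from 0) in each of the 24 libraries, by time point (horizontal axes), with WT mice in blue, Tob-KO mice in red and a bar at the mean of 3 libraries. Bmpr1a rises from a mean of 70.4 CPM in naive mice to 77.2 CPM at 1 h, Smad5 drops from 53 CPM at 1 h to 44.4 CPM at 3 h, and Acvr1c is higher in the Tob-KO libraries at all 4 time points.

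One hour after conditioning, transcripts of 4 of the 10 genes were higher than in naive mice over both genotypes, and none was lower. They were the BMP receptor gene Bmpr1a, the activin-branch receptor gene Acvr1c, the signalling SMAD gene Smad5 and the Id gene Id4. Acvr1c was picked on its levels in these libraries, so the count of 4 is not independent of that choice. The increases were small, from 1.1-fold to 1.18-fold. Of all 19461 genes tested, 5.89% were called in this comparison. A gene was called where edgeR's quasi-likelihood test over the 24 libraries gave a Benjamini-Hochberg adjusted p of at most 0.05.

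Bmpr1a was at 72.1, 69.2 and 66.7 CPM in the 3 naive WT libraries, against 77.2, 73.5 and 74.5 CPM in WT at 1 h. In Tob-KO mice it was at 66.5, 71.8 and 76.2 CPM in naive libraries, against 79.7, 79.7 and 79 CPM at 1 h. All 6 libraries at 1 h were above the median of the naive libraries, and within each genotype the 1 h libraries lay above the naive ones without overlap. How many of all genes were apart over time was not counted, for this gene or those below. Between the genotypes, also 3 libraries against 3, 11.5% to 13.7% of all genes did not overlap at single time points. The share over time may be larger, since 19.8% of all genes had an unadjusted p below 0.05 at 1 h in edgeR's quasi-likelihood test. The log2 fold change was 0.13 (SE 0.0312, 95% interval 0.07 to 0.20, edgeR quasi-likelihood test, adjusted p = 0.0148).

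Smad5 was at 45.6, 47.6 and 47 CPM in naive WT mice, against 55, 49.6 and 54.3 CPM in the same genotype at 1 h. Tob-KO libraries stood at 46.9, 50.8 and 47.4 CPM in naive mice, against 53.7, 52.8 and 52.7 CPM at 1 h. Neither genotype's naive and 1 h libraries overlapped. Over both genotypes, Smad5 was higher at 1 h by 0.16 on the log2 scale (SE 0.0418, 95% interval 0.07 to 0.24, adjusted p = 0.0298 from the same edgeR test).

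Id4 was at 62.4, 74 and 63 CPM in naive WT mice, against 89.9, 81.7 and 73.5 CPM in the same genotype at 1 h. Tob-KO libraries stood at 61.9, 70.9 and 57.8 CPM in naive mice, against 75.2, 70.1 and 69.3 CPM at 1 h. The highest naive library lay above the lowest 1 h library in each genotype. The log2 fold change over both genotypes was 0.23 (SE 0.0658, 95% interval 0.10 to 0.37, adjusted p = 0.0384 from the same edgeR test).

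Acvr1c was at 25, 28 and 28.8 CPM in naive WT mice, against 32.2, 29.7 and 31.8 CPM in the same genotype at 1 h. Tob-KO libraries stood at 30.9, 30.7 and 31.4 CPM in naive mice, against 35, 32.7 and 37.8 CPM at 1 h. The 1 h libraries of each genotype lay above its naive libraries without overlap. The change with time was 0.19 on the log2 scale (SE 0.0517, 95% interval 0.08 to 0.30, adjusted p = 0.0337 from the same edgeR test). This change was not used to pick the gene. A gene picked for a steady genotype difference in the same libraries may still have a small spread within groups, on which the test rests, so this p is not independent of the choice.

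These calls lay close to the threshold, with the exception of Bmpr1a, which remained called with each of the 24 libraries left out in turn (adjusted p at most 0.0447). Smad5, Id4 and Acvr1c were each called in 16 of these 24 fits, with adjusted p up to 0.0818, 0.0897 and 0.085. Every lost call came from leaving out 1 of the 6 naive libraries or of the 6 libraries at 1 h. The other libraries are not part of this comparison. Only 1 gene was called without WT naive replicate 1, WT 1 h replicate 1, Tob-KO naive replicate 1, Tob-KO naive replicate 3 or Tob-KO 1 h replicate 1, and 2 genes were called without WT naive replicate 3, WT 1 h replicate 3 or Tob-KO 1 h replicate 2. Acvr1c alone also lost the call without Tob-KO naive replicate 2 or Tob-KO 1 h replicate 3, and Id4 alone without WT 1 h replicate 2. Smad5 (adjusted p = 0.0529) and Acvr1c (0.051) also lost the call when genes with low counts were not filtered out. All 4 genes stayed called with a choroid plexus score or an endothelial score as a covariate (adjusted p 0.0132 to 0.042 and 0.00571 to 0.038). Of 6 astrocyte markers, 2 (Aqp4 and Gja1) were called higher at 1 h, with sums over the list of 1920 to 2260 CPM at 1 h and 1880 to 2190 CPM in naive mice, and their part in these values was not tested. The activity-induced genes Fos, Arc, Egr1, Junb and Npas4, which mark recent neuronal firing, were called higher than in naive mice in 5 of 5 cases at 15 min and in 4 of 5 at 1 h.

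The other 6 genes were not called at 1 h against naive mice. Smad1 was at 21.6 CPM at 1 h against 19.3 CPM in naive mice, a log2 difference of 0.16 (95% interval 0.04 to 0.29, adjusted p = 0.106). Smad6 was at 2.04 against 2.65 CPM, a log2 difference of -0.42 (95% interval -0.86 to 0.02, adjusted p = 0.273). Its interval is the widest of the 10, and its counts are the lowest. Id1 stood at 0.08 (95% interval -0.20 to 0.36), Id3 at 0.07 (-0.12 to 0.26), Id2 at -0.03 (-0.18 to 0.12) and Smad7 at -0.09 (-0.21 to 0.03), all log2 fold changes of 1 h against naive mice. Increases in Id1 and Id3 of more than 1.29-fold and 1.2-fold lay outside these intervals.

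At 15 min after conditioning, 0 of the 10 genes were called against naive mice, where 4.36% of all genes were called by edgeR's quasi-likelihood test. Unadjusted p was below 0.05 for 3 of them, Id4, Smad5 and Id2, as for 20.2% of all genes, and DESeq2 called 0. Id4 had the largest difference, 74 against 65 CPM, a log2 difference of 0.19 (95% interval 0.05 to 0.32, adjusted p = 0.112). The median log2 fold change of the 10 genes was 0.05, beside 0.00 over all genes. Between 15 min and 1 h, 0 of the 10 genes were called by either tool, beside 0.411% of all genes, and 4 had an unadjusted p below 0.05, as had 13.7% of all genes.

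Between 1 h and 3 h, Smad5 fell. It was at 46, 41.4 and 44.9 CPM in WT mice, and at 42.8, 45.5 and 46 CPM in Tob-KO at 3 h. Every 3 h library was below every 1 h library and below the median of the naive libraries. From 1 h to 3 h the log2 fold change of Smad5 was -0.26 (SE 0.042, 95% interval -0.34 to -0.17, edgeR quasi-likelihood test, adjusted p = 0.00183), and the call was kept with each library left out (adjusted p at most 0.00791). In this comparison 1 of the 10 genes was called, beside 3.42% of all genes.

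Id4 and Smad1 were also lower at 3 h than at 1 h without passing the test. Id4 was at 65.8 against 76.6 CPM, a log2 difference of -0.22 (95% interval -0.36 to -0.08, adjusted p = 0.0687), and Smad1 at 19 against 21.6 CPM, a log2 difference of -0.19 (-0.31 to -0.06, adjusted p = 0.0855). DESeq2 called 3 of the 10 genes, adding Id4 (adjusted p = 0.0276) and Smad1 (adjusted p = 0.047). With the endothelial score as a covariate, edgeR also called 3, adding Smad1 (adjusted p = 0.0218) and Smad6, which was higher at 3 h (log2 fold change 0.66, adjusted p = 0.0334). Bmpr1a was at 72.5 CPM at 3 h against 77.2 CPM at 1 h (log2 fold change -0.09, adjusted p = 0.108). Acvr1c was at 30.8 against 33.2 CPM (log2 fold change -0.11, adjusted p = 0.269).

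Against naive mice, 0 of the 10 genes were called at 3 h, as was 0% of all genes, by edgeR's quasi-likelihood test. Unadjusted p was below 0.05 for 3 genes, beside 8.97% of all genes, and DESeq2 called 0 of the 10. The largest of the 3 was Smad7, with 24.6 CPM at 3 h against 27.5 CPM in naive mice, a log2 difference of -0.16 (95% interval -0.28 to -0.04, adjusted p = 0.459).

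With 3 libraries per group, 0 of the 10 genes were called in either genotype alone by edgeR's quasi-likelihood test. In WT the shares of all genes called were 0.0462% at 15 min, 0.185% at 1 h and 0% at 3 h, and in Tob-KO they were 2.52%, 1.13% and 0%, each against naive mice of the same genotype. In WT, 0, 7 and 1 of the 10 genes had an unadjusted p below 0.05 at the 3 time points, and in Tob-KO 2, 4 and 1. The shares of all genes below this limit were 8.73%, 10.8% and 4% in WT and 17.4%, 15.6% and 10.6% in Tob-KO. The nearest to the threshold was Bmpr1a at 1 h in Tob-KO, a log2 difference of 0.15 (95% interval 0.06 to 0.24, adjusted p = 0.0835). It passed with DESeq2 (adjusted p = 0.0303), with the endothelial score as a covariate (adjusted p = 0.0351) and without Tob-KO naive replicate 3 (log2 fold change 0.20, adjusted p = 0.0403), and DESeq2 called 0 of the 10 in the other 5 comparisons. In WT at 1 h, the log2 fold change of Bmpr1a was 0.11 (95% interval 0.02 to 0.21).

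The change after conditioning was not shown to differ between the genotypes for any of the 9 genes tested for it. The interaction of genotype and time had adjusted p between 0.953 and 0.991 in edgeR's quasi-likelihood test, 0 of the 9 had an unadjusted p below 0.05 (4.09% of all genes had), and 0% of all genes were called. The difference between the genotypes in the change at 1 h was 0.04 on the log2 scale for Bmpr1a (95% interval -0.09 to 0.17), -0.05 for Smad5 (-0.22 to 0.13) and -0.13 for Id4 (-0.40 to 0.15). DESeq2 called 0 of the 9 as well. The lowest unadjusted p was that of Id2 (0.0521), for which the change at 1 h was larger in Tob-KO by 0.38 on the log2 scale (95% interval 0.08 to 0.67) and the change at 3 h by 0.36 (0.07 to 0.65), with adjusted p = 0.999 and 0.894 for these single time points.

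**Figure D2:**
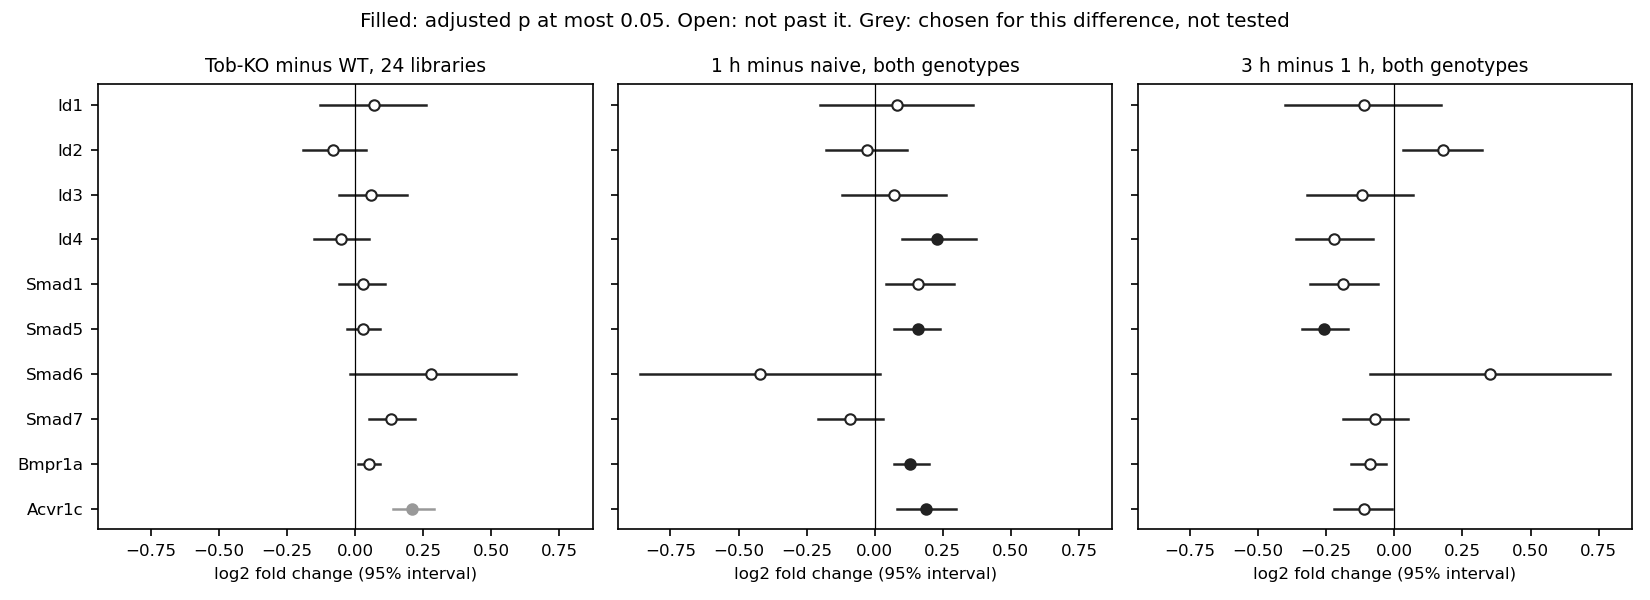
Log2 fold changes of the 10 genes (horizontal axes) with 95% intervals from edgeR's quasi-likelihood fits over 24 libraries, for Tob-KO against WT, for 1 h against naive mice and for 3 h against 1 h, the latter 2 over both genotypes. Filled points have an adjusted p of at most 0.05, open points do not, and the grey point of Acvr1c was chosen for this difference. Filled points are Id4, Smad5, Bmpr1a and Acvr1c at 1 h, between 0.13 and 0.23, and Smad5 from 1 h to 3 h, at -0.26.

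The targets and parts of the BMP pathway did not pass the test between Tob-KO and WT mice. Over all time points, 0 of the 9 genes tested for genotype were called by edgeR's quasi-likelihood test with time point as a factor, beside 0.462% of all genes, and DESeq2 called 0. Log2 fold changes of Tob-KO against WT ran from -0.08 to 0.28, with a median of 0.05, beside -0.00 over all genes.

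Among the targets, Id1 was at 9.82 CPM in Tob-KO and 9.37 CPM in WT (log2 fold change 0.07, 95% interval -0.13 to 0.26), and the log2 fold change was 0.01 with the choroid plexus score as a covariate. Id3 was at 23.8 and 22.8 CPM (0.06, -0.06 to 0.19), Id2 at 52.6 and 55.4 CPM (-0.08, -0.19 to 0.04) and Id4 at 69 and 71.6 CPM (-0.05, -0.15 to 0.05). An overall rise of any Id gene in Tob-KO mice by more than 1.2-fold was thus outside the 95% intervals. For Smad1 and Smad5 the log2 fold changes were both 0.03, with intervals of -0.06 to 0.11 and -0.03 to 0.09.

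The inhibitory SMAD genes had the largest values. Smad7 was at 27.6 CPM in Tob-KO and 25.1 CPM in WT, a log2 difference of 0.13 (95% interval 0.05 to 0.22, unadjusted p = 0.00467, adjusted p = 0.168 from edgeR). Smad6 was at 2.67 and 2.22 CPM, a log2 difference of 0.28 (95% interval -0.02 to 0.59, adjusted p = 0.415), and of 0.14 with the choroid plexus score as a covariate (adjusted p = 0.743). The only other gene of the 9 with an unadjusted p below 0.05 was Bmpr1a, at 74.5 and 72 CPM, a log2 difference of 0.05 (adjusted p = 0.308), while 13.3% of all genes were below this limit.

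At single time points, 0 of the 9 genes were called between the genotypes by edgeR's exact test, by its quasi-likelihood test or by DESeq2. The shares of all genes called by the exact test were 0.0381% in naive mice, 0.743% at 15 min, 0.122% at 1 h and 0.0663% at 3 h, and 0.0218%, 0.552%, 0.0331% and 0.0276% with a fold change of at least 2 as well. An unadjusted p below 0.05 was reached by 2 genes in naive mice, 0 at 15 min, 2 at 1 h and 1 at 3 h, beside 4.05%, 8.07%, 5.34% and 3.95% of all genes. Libraries of the genotypes, 3 against 3, were fully apart for 2 of the 9 genes in naive mice, 0 at 15 min, 2 at 1 h and 1 at 3 h, while 11.5%, 13.7%, 11.6% and 12.1% of all genes did not overlap, in either direction.

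In naive mice, Id2 was at 63.3, 53.2 and 55.8 CPM in WT, against 46.2, 42.9 and 48.7 CPM in Tob-KO. Every Tob-KO library was below every WT library, and the log2 fold change was -0.32 (SE 0.0779, edgeR exact test, unadjusted p = 0.00148, adjusted p = 0.558). At the later time points the Id2 libraries of the genotypes overlapped, at log2 differences of -0.08, 0.05 and 0.03, of which the latter 2 changed sign with 1 library left out. The activity-induced list also differed in naive mice, with sums of 208 to 246 CPM in Tob-KO and 315 to 371 CPM in WT, and 1 of its 5 genes, Arc, was called lower in Tob-KO. Its part in the Id2 values was not tested.

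Smad7 was at 24.9, 26.4 and 24.9 CPM in naive WT mice, against 30.2, 29.8 and 28.8 CPM in naive Tob-KO mice. The 3 h libraries of Smad7 read 23.5, 22.3 and 21.6 CPM for WT, and 27, 24.6 and 28.7 CPM for Tob-KO. Tob-KO libraries were above WT libraries without overlap at both of these time points, at log2 fold changes of 0.22 and 0.25 (edgeR exact test, adjusted p = 1 and 0.947). At 15 min and 1 h the groups overlapped, at log2 differences of 0.08 and -0.01, both of which changed sign with 1 library left out. The sums of the activity-induced list were also apart at 3 h, at 201 to 229 CPM in Tob-KO and 271 to 428 CPM in WT, and their part in the Smad7 values was not tested.

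At 1 h, Smad6 was at 2.11, 1.17 and 1.35 CPM in WT mice, against 2.63, 2.29 and 2.67 CPM in Tob-KO mice. The groups did not overlap, and the log2 fold change was 0.72 (SE 0.23, edgeR exact test, adjusted p = 0.519). Without WT 1 h replicate 1, the highest of the WT libraries, it was 1.01 with an adjusted p of 0.00108, so 1 library decided whether Smad6 was called. Of all genes, 22 were called at this time point, and 11 to 400 with 1 library left out. WT 1 h replicate 1 also had the highest choroid plexus sum of the WT libraries at 1 h, 3810 CPM. Sums of the meningeal fibroblast list, 3 of whose 8 genes were called higher in Tob-KO at 1 h, were 292 to 313 CPM in Tob-KO and 148 to 281 CPM in WT at this time point, and those of the choroid plexus list 3310 to 4990 and 251 to 3810 CPM. Their part in the Smad6 values was not tested. In naive mice, at 15 min and at 3 h the Smad6 libraries overlapped, at log2 differences of 0.24, -0.02 and 0.24, which ran from -0.09 to 0.60, from -0.19 to 0.14 and from 0.00 to 0.39 with 1 library left out. The naive value turned negative without Tob-KO naive replicate 2. Bmpr1a, the other gene without overlap at 1 h, was at 79.5 CPM in Tob-KO and 75 CPM in WT (log2 fold change 0.08, adjusted p = 1).

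Acvr1c was higher in Tob-KO than in WT mice at every time point, which is what it was picked for. In naive mice it was at 30.9, 30.7 and 31.4 CPM in Tob-KO against 25, 28 and 28.8 CPM in WT. At 15 min the libraries read 33, 34.6 and 30.1 CPM against 25.8, 30 and 28.6 CPM. The gap was narrowest there, between 30.1 CPM in the lowest Tob-KO and 30 CPM in the highest WT library.

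At 1 h, Acvr1c was at 35, 32.7 and 37.8 CPM in Tob-KO against 32.2, 29.7 and 31.8 CPM in WT. At 3 h the libraries held 30.7, 35.5 and 35.6 CPM against 27.5, 27 and 28.7 CPM. The genotypes did not overlap at any of the 4 time points, and 11 of 19461 genes (0.0565%) had every Tob-KO library above every WT library at all 4, Tob1 and Acvr1c among them. The log2 fold changes were 0.19 in naive mice, 0.21 at 15 min, 0.17 at 1 h and 0.29 at 3 h, and 0.21 over all time points (95% interval 0.14 to 0.29), where mean levels were 33.2 CPM in Tob-KO and 28.6 CPM in WT. With 1 library left out, the values at single time points ran from 0.12 to 0.35.

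The pathway was then read more widely through 12 lists of ligands, receptors, antagonists, SMADs and targets, which hold 79 genes beside the 10. These lists, too, were chosen with earlier results of these data known. Of the 79 genes, 73 passed the filter over the 24 libraries, and the ligand genes Bmp8a, Bmp10, Gdf2, Gdf1 and Gdf3 and the antagonist gene Cer1 did not. Bmp6 was the most abundant BMP ligand gene, at 3.38 CPM per kb of exon, and Tgfb2 led the activin, nodal and TGF-beta ligands, at 8.66 CPM per kb. Among receptors, the activin receptor gene Acvr1b was at 31.8 CPM per kb and the type II receptor gene Bmpr2 at 16.6, and Rgma, a coreceptor for BMPs, was at 9.38. Smad4, the partner shared by all signalling SMADs, was at 15.8 CPM per kb. The secreted BMP antagonist gene Nbl1 was at 32.4 CPM per kb and Ski, a nuclear repressor of SMADs, at 35.1, both higher than any of the 10 genes. Hey1, a further BMP target, was at 14.1 CPM per kb, and Tcf4, which encodes an E protein that ID proteins bind, at 21.4.

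At 1 h against naive mice, 3 of the 73 genes were called higher and 1 lower, beside 5.89% of all genes called in either direction, so the share of the 73 was no higher than that. Of the 7 type I receptor genes, Acvr1c and Bmpr1a among them, 3 were called higher, and the third was Bmpr1b. Bmpr1b, a BMP type I receptor gene like Bmpr1a, was at 23.2, 24 and 24.7 CPM in naive WT and 30.7, 29.2 and 28.9 CPM in WT at 1 h. In Tob-KO it was at 21.2, 23 and 23.6 CPM in naive mice and 26.2, 26.4 and 27 CPM at 1 h. All 6 libraries at 1 h lay above all naive libraries. The log2 fold change was 0.27 (SE 0.0495, 95% interval 0.17 to 0.37, edgeR quasi-likelihood test, adjusted p = 0.00374), larger than that of Bmpr1a in value, although this difference was not tested. The call was kept with each library left out (adjusted p at most 0.014).

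Chrd, which encodes the secreted BMP antagonist chordin, was the gene called lower. It was at 57.7, 66.4 and 75.8 CPM in naive WT and 48.3, 56.7 and 50.6 CPM in WT at 1 h. In Tob-KO it was at 79.9, 77.8 and 90.1 CPM in naive mice and 59.1, 54 and 59.2 CPM at 1 h. The naive and 1 h libraries of each genotype did not overlap, and the log2 fold change was -0.44 (SE 0.114, adjusted p = 0.0255 from edgeR). It lost the call without WT naive replicate 3, WT 1 h replicate 1, WT 1 h replicate 3, Tob-KO naive replicate 3 or Tob-KO 1 h replicate 2 (adjusted p up to 0.0736). Bambi, a decoy receptor that is known as a BMP target, was at 7 against 5.38 CPM (log2 fold change 0.38, adjusted p = 0.0306, called in 18 of 24 fits with 1 library left out and at up to 0.0838 in the others). Trim33, a nuclear partner of SMADs, was at 97.9 against 89.9 CPM (log2 fold change 0.12, adjusted p = 0.0407, called in 14 of those fits and not without the filter on low counts). None of the 10 tested BMP ligand genes or of the 5 type II receptor genes was called.

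At 15 min, Bmpr1b and Chrd had already moved. Bmpr1b was at 26.6, 31.9 and 26 CPM in WT and 27.8, 28.3 and 31.9 CPM in Tob-KO, above all 6 naive libraries, a log2 difference of 0.30 (adjusted p = 0.00217 from edgeR). Chrd was at 52.1, 45.9 and 63.1 CPM in WT and 52.3, 59.7 and 32.6 CPM in Tob-KO, a log2 difference of -0.55 (adjusted p = 0.0103). The other 2 of the 73 genes called at 15 min were Rgma, higher by 0.21 on the log2 scale (adjusted p = 0.0349), and Nedd4l, which encodes a ubiquitin ligase that acts on SMADs and receptors, at a log2 difference of -0.16 (adjusted p = 0.0398). These are 4 of 73 genes, beside 4.36% of all genes. With 1 library left out, Bmpr1b and Chrd were called in 24 of 24 fits, Rgma in 16 and Nedd4l in 12.

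Endothelial markers rose at the same time point, with 3 of 10 (Kdr, Flt1 and Cldn5) called higher and sums of 226 to 329 CPM at 15 min against 166 to 233 CPM in naive mice. Of the pericyte and smooth muscle markers 2 of 6 (Pdgfrb and Rgs5) were called higher, with sums of 197 to 252 CPM against 148 to 193 CPM, and of the astrocyte markers 2 of 6 (Aqp4 and Gja1), with sums of 2020 to 2440 CPM against 1880 to 2190 CPM, and their part in these values was not tested. With the endothelial score as a covariate, the number of all genes called at 15 min went from 849 to 19, and none of these 4 genes was called. With it the log2 fold change was 0.20 for Bmpr1b (adjusted p = 0.29), -0.31 for Chrd (0.471), -0.10 for Nedd4l (0.597) and, as without it, 0.21 for Rgma (0.362). At 1 h the endothelial sums were 182 to 215 CPM, and Bmpr1b and Chrd stayed called with this covariate (adjusted p = 0.00118 and 0.00885). In Tob-KO alone, Bmpr1b, Chrd and Nedd4l were called at 15 min, at log2 differences of 0.38, -0.78 and -0.24 (adjusted p = 0.00975, 0.0175 and 0.0485). With the endothelial score as a covariate they were at 0.30, -0.61 and -0.20 and not called (adjusted p = 0.0691, 0.112 and 0.223). Bmpr1b and Chrd were not called without Tob-KO 15 min replicate 3 (adjusted p = 0.0841 and 0.117) or in a fit of the 6 libraries compared (0.209 and 0.225), Chrd also not without Tob-KO naive replicate 3 (0.058), and Nedd4l was called in 4 of 24 fits with 1 library left out.

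From 1 h to 3 h, 9 of the 73 genes were called lower and 1 higher, beside 3.42% of all genes in either direction. Bmpr1b and Tgfbr1 were among those called lower. Bmpr1b came back to 24.4, 24.5 and 23.3 CPM in WT and 22.8, 23.6 and 23 CPM in Tob-KO, below all libraries at 1 h (log2 fold change -0.25, adjusted p = 0.00743). Tgfbr1, the TGF-beta type I receptor gene, fell by 0.20 on the log2 scale (adjusted p = 0.027). Among ligand genes, Gdf11 was at 19.8 against 24.5 CPM (log2 fold change -0.31, adjusted p = 0.00155) and Inhbb, an activin subunit gene, at 7.41 against 10 CPM (-0.44, adjusted p = 0.00882).

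Inhba, the gene of the other activin subunit and the only one called higher, was at 4.06, 4.08 and 4.09 CPM in WT and 5.23, 3.92 and 4.07 CPM in Tob-KO at 1 h. At 3 h the WT libraries held 5.89, 4.85 and 6.7 CPM and the Tob-KO libraries 6.01, 7.42 and 5.62 CPM. The log2 fold change was 0.52 (SE 0.108, adjusted p = 0.0105), and the 2 activin subunit genes thus moved in opposite directions over these hours. Atoh8, a further BMP target, was at 1.91 against 3.04 CPM (log2 fold change -0.67, adjusted p = 0.0144).

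The remaining genes called from 1 h to 3 h were Tcf12 of the E proteins (log2 fold change -0.18, adjusted p = 0.0264), the BMP-binding Twsg1 (-0.19, adjusted p = 0.0339), the ubiquitin ligase gene Smurf2 (-0.16, adjusted p = 0.0358) and Bambi (-0.39, adjusted p = 0.0415). With each library left out, Bmpr1b, Gdf11, Inhba, Inhbb and Atoh8 kept their calls in 24 of 24 fits, Tcf12 in 19, Tgfbr1 and Twsg1 in 15, and Smurf2 and Bambi in 13. For the last 4, the fits without a call left out 9 or 11 different libraries, all of them among the 6 at 1 h and the 6 at 3 h. Twsg1 was not called with the endothelial score (log2 fold change -0.13, adjusted p = 0.117) or the choroid plexus score (-0.15, 0.0545) as a covariate, nor Tcf12 with the latter (-0.16, 0.0528). Over the 73 genes, the median log2 fold change from 1 h to 3 h was -0.06, beside 0.00 over all genes.

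**Figure D3:**
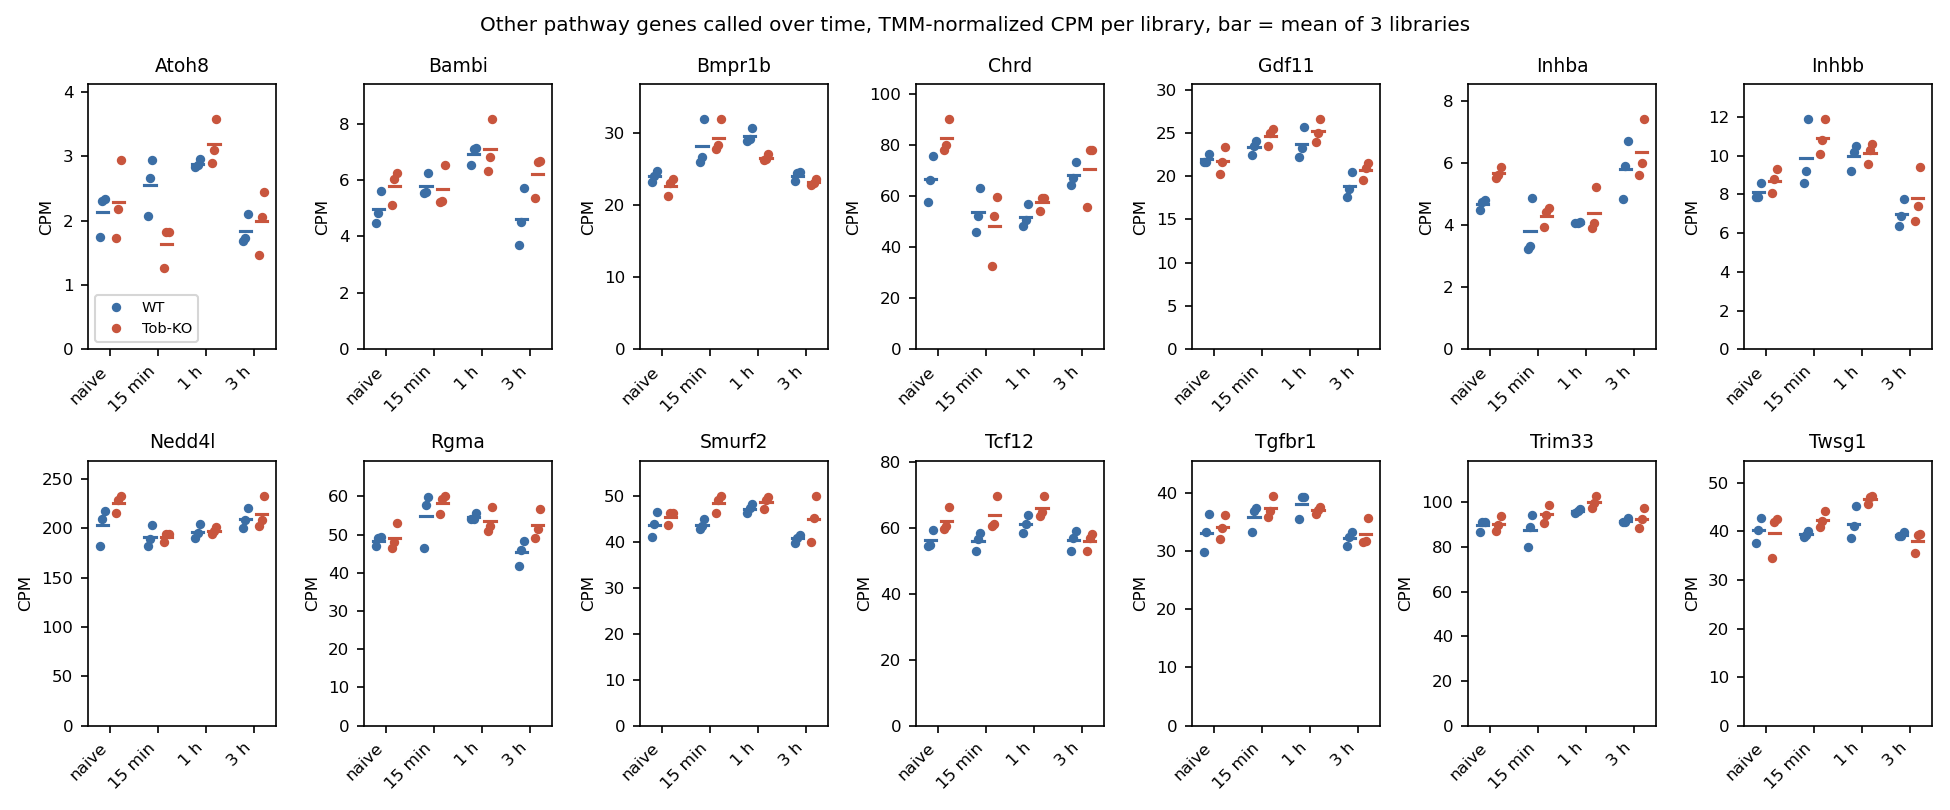
TMM-normalized CPM (vertical axes from 0) of the 14 other pathway genes called in a comparison over time, in each library by time point, with WT in blue, Tob-KO in red and bars at the mean of 3 libraries. Bmpr1b stands at 28.8 CPM at 15 min and 28.1 CPM at 1 h against 23.3 CPM in naive mice, and Chrd falls from 74.6 CPM to 51 and 54.6 CPM.

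Between the genotypes, 0 of the 73 pathway genes were called over all time points by edgeR's quasi-likelihood test, and 1 was called at a single time point. At 15 min, Sostdc1, which encodes a secreted antagonist of BMP and WNT signalling, was at 1.87, 2.23 and 2.18 CPM in WT mice, against 2.45, 37.7 and 18.5 CPM in Tob-KO mice. The lowest Tob-KO library stood next to the WT libraries and the other 2 far above them. The log2 fold change was 3.22 (SE 0.756, edgeR exact test, adjusted p = 0.00519).

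All 13 choroid plexus markers were called higher in Tob-KO at this time point, and Ttr, the defining choroid plexus transcript, was at 29, 2890 and 1100 CPM in the same 3 Tob-KO libraries, against 3.65, 13.6 and 16.6 CPM in WT. Over the other groups, Sostdc1 was at 2.12 to 3.04 CPM in the libraries with Ttr at 16.8 to 35.7 CPM, and at 7.08 to 41.4 CPM in those with Ttr at 579 to 4210 CPM. The Sostdc1 call was lost with the quasi-likelihood test, with DESeq2 or with dispersions from all 24 libraries (adjusted p up to 0.448), and without WT 15 min replicate 1, WT 15 min replicate 3 or Tob-KO 15 min replicate 2 (up to 0.0923).

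**Figure D4:**
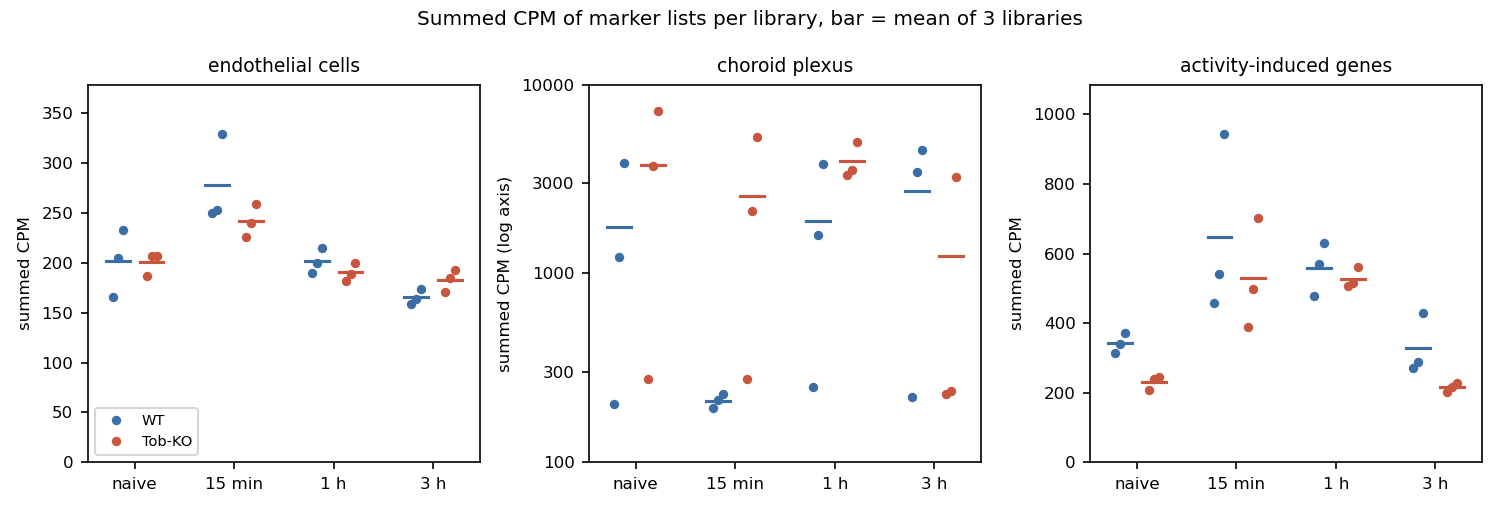
Summed CPM of 10 endothelial, 13 choroid plexus (log axis) and 5 activity-induced marker genes in each library by time point, with WT in blue, Tob-KO in red and bars at the mean of 3 libraries. Endothelial sums reach 226 to 329 at 15 min, and choroid plexus sums run from 194 to 7240 with libraries of one group far apart except in WT at 15 min and Tob-KO at 1 h.

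Across the 24 libraries, the levels of some of the 10 genes rose and fell together. Pearson's r of log2 CPM was 0.64 for Id1 with Smad6, 0.60 for Id3 with Smad6 and 0.57 for Id1 with Id3, while Id1 and Id2 gave 0.17 and Id2 and Smad5 gave -0.44. Id4 went with Smad5 (0.58) and Bmpr1a with Acvr1c (0.53). These are descriptions over libraries that share groups, depth and tissue makeup.

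By the pattern of the 8 group means of log2 CPM, the tested genes most like each of the 10 were named by Pearson's r. For Acvr1c they were Rnf145 (0.977), the ligand gene Gdf10 (0.951) and Tes3-ps (0.95). For Id4 they were Mvd (0.976), Elovl5 (0.971) and Rbm12 (0.967), for Smad5 Vhl (0.985), Ppp2r1b (0.98) and Rc3h1 (0.978), and for Bmpr1a Psmd11 (0.982), Casp8ap2 (0.981) and Ddx10 (0.978). For Id1 the highest was 0.933, with Gm9825, and for Id2 0.973, with Tbr1. Id3 was most like Trp53i13 (0.985), Smad1 like Emx2 (0.961), Smad6 like Ostc (0.965) and Smad7 like Clcf1 (0.956). These are the highest of 19461 values over 8 means and are given as a description.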

How the data were processed

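Per the labels and the methods of the paper, poly(A) RNA was sequenced in paired-end reads, which were mapped to GRCm38 with STAR 2.6.1d and counted with HTSeq 0.9.0. The authors deposited raw counts per gene and library, without normalization. The annotation release and the strand setting of the counting are not given in the sources used here. Libraries were amplified by PCR, no molecular identifiers are mentioned, and intervals over libraries do not separate the mice from the preparation.

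Levels were computed as TMM-normalized CPM over the 24 libraries, and lengths are the union of exons in GENCODE. Genotypes at 1 time point were compared with edgeR's exact test over 6 libraries (at least 0.2 CPM in 2), as in the study, and the other comparisons over 24 libraries by its quasi-likelihood test (edgeR 4.0.16, R 4.3.3), both with Benjamini-Hochberg adjustment over all genes tested. Standard errors and 95% intervals come from quasi-likelihood fits. Comparisons with naive mice share the naive libraries. DESeq2 1.42.0, its size factors, no filter, a replicate block, marker scores as covariates and leaving out each library were the alternatives. The fits were tested on simulated data. A limit on false calls was set there for the quasi-likelihood tests only. For the exact test only the recovery of changed genes was required, so its false calls were not limited by this check. No library was a copy of another of its own group (chi-square of counts per degree of freedom 3.89 to 24.8 over 24 pairs). Pairs of libraries from different groups were not checked in this way. The genes named are the 10, the listed pathway genes called in a comparison, the most abundant of each list, those most like each of the 10, Tob1 and markers that stood out. The 10 genes and all lists were chosen with earlier results of these data known.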

Additional observations from a re-analysis of the deposited data

How the results depend on the processing

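None of the 32 results on single genes that were called, or given as a description of Acvr1c, changed direction. Of the 45 genotype differences of the other 9 genes, none of them called, 1 had the other sign under another setting (Smad5 at 1 h, 0.00) and 18, all at single time points, with 1 library left out, among them Smad6 in naive mice (0.24, lowest -0.09), Id1 in naive mice (0.09, lowest -0.10) and at 3 h (0.17, lowest -0.01) and Smad7 at 15 min (0.08, lowest -0.01). Of the 195 alternatives run for the 32 results, 168 left the result the same, and so did 542 of 678 fits that left out 1 library. For a called gene, the same means that it stayed called. The descriptions of Acvr1c have no call, and counted as the same where the value moved by less than the spread within groups. All of their fits did so, and the shares for called genes alone were thus lower. For the 10 genes, the number called at 1 h against naive mice was 4, and it was 2 with no filter on low counts, where Smad5 (adjusted p = 0.0529) and Acvr1c (0.051) were lost and more genes were tested, and 1 to 4 with 1 library left out. From 1 h to 3 h, 1 gene was called, 3 with DESeq2 and 3 with the endothelial score as a covariate, and 1 in each fit that left out a library. At 1 h against naive mice in Tob-KO, 0 were called, 1 with DESeq2, 1 with the endothelial score as a covariate and 0 to 1 with 1 library left out. Between the genotypes at 1 h, 0 were called and 0 to 1 with 1 library left out, with and without the fold limit. The cause of these differences was not tested. The number of all genes called moved more, for 1 h against naive mice from 1147 to between 836 and 1465, for 15 min against naive mice from 849 to between 19 and 1261, and for genotype over all time points from 90 to between 60 and 293.

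The replicate numbers occur in every group, but in 0 of the 28 pairs of groups did every same-numbered pair of libraries deviate together (correlation over 0.1). Mean correlations of a pair of groups ran from -0.214 (WT 1 h with Tob-KO naive) to 0.246 (Tob-KO naive with Tob-KO 15 min, 0.0571 to 0.361). A batch shared by only some libraries cannot be seen by this rule, because 1 low correlation is enough to fail it. With the replicate number as a block, 4 of the 10 genes were called at 1 h against naive mice and 1 from 1 h to 3 h, as without it, and 0 in the other comparisons. Of the other pathway genes, it ended the calls of Nedd4l at 15 min, of Twsg1 and Bambi from 1 h to 3 h and of Sostdc1 between the genotypes. Depth limits Smad6 most, with 43 to 128 counts per library.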
